A study of Mus musculus with 18 samples.

Results

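The genes described here encode the proteins of the cytosolic ribosome. They were chosen by name, with earlier results of these data known. The rule took rows whose symbol is Rpl or Rps followed by digits and optionally a, x or l. It also took Rpsa, Rplp0, Rplp1 and Rplp2, and left out pseudogenes and the Rps6 kinases. The rule found 81 of the 44349 rows, and 77 of them passed the filter on low values, which kept 14285 genes that reached 1 FPKM in 3 or more of the 18 libraries. FPKM counts fragments per kilobase of transcript, relative to all mapped fragments. Of the 77, 30 encode small subunit proteins, 41 large subunit proteins and 3 the stalk proteins Rplp0, Rplp1 and Rplp2, and 3 are the paralogues Rpl39l, Rps4l and Rps27l. The other 4 were not tested: the paralogues Rpl3l, Rpl6l and Rpl10l were too low, and Rpl22 had missing values in KO Wnt5a replicate 3 and KO Reserve replicate 3.

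The libraries were made from mouse bone marrow cells sorted as long-term haematopoietic stem cells, the gate being negative for lineage markers, CD34 and Flk2, positive for Sca-1 and c-Kit, and low for CD49b. The 6 groups of 3 libraries were WT, wild type; Wnt5a, labelled only with the name of this noncanonical Wnt ligand; KO Ctrl, controls from the knockout of DERARE, which is an enhancer in the Hoxb cluster that responds to retinoic acid; KO Wnt5a, described as a Wnt5a rescue of the knockout; WT Reserve, wild-type reserve cells; and KO Reserve, the reserve cells titled as knockout. The genotype field of KO Ctrl holds the words knockout and wt side by side, and that of KO Reserve holds wild type and ko, so titles were followed for both. Age, strain, the way and time in which Wnt5a was given and the number of mice per library are not given in the sources used here.

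A ribosome is built from a small subunit, which reads the messenger RNA, and a large subunit, which forms peptide bonds. Each canonical protein is needed in about equal amounts, and their messenger RNAs share a cytosine followed by a tract of pyrimidines at the 5′ end, the TOP motif, through which mTORC1 controls their translation. Haematopoietic stem cells are known for a low rate of protein synthesis compared with progenitors, and inherited loss of a single ribosomal protein gene causes Diamond-Blackfan anaemia, a failure of red cell production.

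The TOP start could be looked for in RefSeq promoter windows of 300 bases (GRCm38.p6), which matched 59 of the 81 genes with 71 windows. A C at the start site followed by at least 4 C or T was present in 13 of the 71 windows, or 18.3%, against 2.5% of all 32851 windows. A run of at least 8 C or T within 30 bases of the start occurred in 49.3% and 22.9%. The 7 letters CCGGAAG, searched on both strands, were found in 36.6% of the windows of these genes and 8.9% of all windows. CACGTG was found on either strand in 11.3% and 7.2%, and TATAAA in 8.5% and 13.6%. A match describes the letters at an annotated start, which can lie a few bases from the start used in these cells. Below are the starts of 3 genes and then 3 more among those with a TOP start. The first 3 had the smallest and the last 3 the largest difference between KO Reserve and WT Reserve. Each run covers 10 bases before and 20 from the start, with the pyrimidine tract in capitals.

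Rps6 (chr4:86857348-86857377, minus strand): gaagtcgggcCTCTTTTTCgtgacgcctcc

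Rpl15 (chr14:18270967-18270996, minus strand): agaaagccttCTTCCTTTCCTCTggcggca

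Rps27 (chr3:90213629-90213658, minus strand): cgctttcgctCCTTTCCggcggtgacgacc

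Rps21 (chr2:180257369-180257398, plus strand): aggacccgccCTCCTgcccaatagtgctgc

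Rpl28 (chr7:4792955-4792984, plus strand): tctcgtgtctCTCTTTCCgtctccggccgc

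Rplp2 (chr7:141447641-141447670, plus strand): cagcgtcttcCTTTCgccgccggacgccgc

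The tract measured 9, 13 and 7 bases in the first 3 and 5, 8 and 5 bases in the last 3. Across the 13 tested genes with such a start the median log2 difference between KO Reserve and WT Reserve was 0.66, and across the 43 tested genes whose windows lacked it 0.60. Genes whose span holds a snoRNA gene on the same strand in GENCODE M21 were likewise close to the rest, with a median of 0.58 for 28 hosts and 0.59 for the 46 other canonical genes.

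Depth had to be inferred from the smallest steps between values and came to between 20.7M and 41.5M fragments (M, mega) per library, lowest in the reserve libraries (20.7M to 29.3M) and in KO Ctrl replicate 1 (22.2M). Markers of other cells set the reserve libraries apart. The 9 neutrophil markers summed to 5.45 to 144 FPKM outside the reserve set, to 4697 to 10523 for WT Reserve and to 2489 to 3759 for KO Reserve, with none at 0 in either reserve group. The 12 erythroid markers summed to 463 to 671, 5235 to 7452 and 7792 to 9317, and the 8 B cell markers to 28.3 to 71.8, 2045 to 2388 and 1553 to 1891. Of the defining neutrophil markers, S100a9, Ngp, Camp, Lcn2, Elane or Ctsg were at 0 in some group outside the reserve set, and of the erythroid ones Hba-a1, Hba-a2, Ank1 or Car1. The 6 megakaryocyte and platelet markers went the other way, from 7347 to 30824 down to 173 to 180.1 and 78 to 133. The 11 LT-HSC markers, none at 0, summed to 425 to 517 outside the reserve set. Their sum was 259 to 370.3 for WT Reserve and 80.5 to 84.8 for KO Reserve. The 4 multipotent progenitor markers summed to 351 to 483, 329 to 385 and 119.6 to 169.7 in that order. Both sums were lowest in KO Reserve. Genes of the sorting gate did not all go one way. Mean FPKM of Cd34 was 358 in WT, 67.7 for WT Reserve and 10.6 for KO Reserve. For Flt3 (Flk2) it was 0.516, 15.5 and 3.93, for Ly6a (Sca-1) 90.9, 152 and 21.9 and for Kit 15.7, 28.8 and 29.5. In sorted bulk RNA a changed share of some cell type and a changed level per cell cannot be told apart, and the part of these markers in the results below was not tested. Reserve columns also carry another name stem in the deposited header (derarefl, against derarewt and derareko), so that anything that went with a separate handling of the reserve set cannot be told apart from the reserve label. The labels do not say that replicates were separate mice, so each p-value reflects only how much these libraries varied.

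Among the 74 canonical genes, the level per length in WT had a median of 498 FPKM and was lowest for Rpl27a, at 145 ± 14.2 FPKM (SD, n = 3). In all, 55 of the 74 lay within 2-fold of that median. Rps19, Rps14, Rpl32 and Rps18 were among the 5 highest and Rpl27a, Rpl37, Rpl10a, Rps23 and Rpl29 the 5 lowest. Rps19 stood at 1618 ± 128 and Rps14 at 1411 ± 110.5. The lowest pair, Rpl27a and Rpl37 (151 ± 13.4), did not differ beyond their spread. The ranking was almost the same outside the reserve set. Across the 74 genes the Pearson correlation of log2 group means with WT was 0.997 for Wnt5a, 0.994 for KO Ctrl and 0.993 for KO Wnt5a, against 0.901 for WT Reserve and 0.874 for KO Reserve. These are descriptions over genes that share their libraries and lengths. Small subunit genes had a median of 531 FPKM in WT and large subunit genes 487.

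The summed level of the 74 genes was highest in WT among the 4 groups outside the reserve set and higher still in the reserve cells, most of all in KO Reserve. The sum was 41908, 47288 and 44218 FPKM in the WT libraries, 40054, 39155 and 39594 in Wnt5a, 36442, 39622 and 41617 in KO Ctrl and 37833, 41182 and 43812 in KO Wnt5a. It was 66615, 72113 and 60433 in WT Reserve, then 84347, 98286 and 113096 in KO Reserve. Every Wnt5a and KO Ctrl library lay below every WT library. Both reserve groups lay above all 12 other libraries, without overlap with each other. As a share of the FPKM of protein-coding genes, the sum was 6.3% ± 0.342 (SD, n = 3) in WT, 5.82% ± 0.0802 in Wnt5a, 5.94% ± 0.324 in KO Ctrl and 6.16% ± 0.39 in KO Wnt5a, and then 9.47% ± 0.577 in WT Reserve, then 13.5% ± 1.85 in KO Reserve. Over genes and groups, the median replicate SD was 0.109 on the log2 scale, against 0.163 over all genes, which include many lower ones. KO Reserve replicates were spread more widely. The SD of the mean log2 level of the 77 genes was 0.20 there and 0.02 to 0.12 in the other groups.

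**Figure D1:**
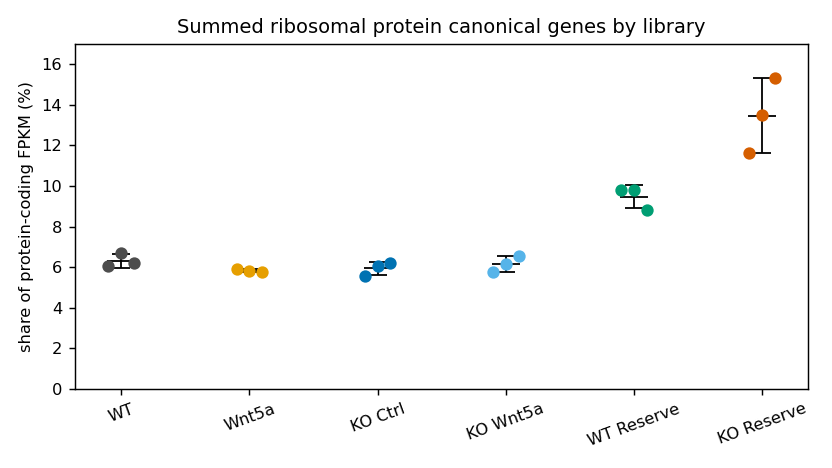
Share of protein-coding FPKM taken by the 74 canonical ribosomal protein genes, in percent, with 1 point per library and bars for the mean and SD of 3 libraries. The 12 libraries outside the reserve set lie between 5.58% and 6.69%, WT Reserve between 8.8% and 9.81% and KO Reserve between 11.6% and 15.3%.

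Between the reserve groups, titled as knockout and wild type, the difference went one way for nearly all genes. LT-HSC markers were lower and erythroid marker sums higher in KO Reserve, as given above. Of the 77 genes, 71 rose in KO Reserve over WT Reserve and 0 fell, by limma's moderated test on log2(FPKM + 1) with Benjamini-Hochberg adjusted p below 0.05 over all 14285 genes. Over all genes, 12.0% rose and 29.3% fell. The median log2 difference was 0.59, with the middle 50% of the genes from 0.46 to 0.71, while the median over all genes was -0.17. All 30 small subunit genes rose (median 0.59), 38 of the 41 large subunit genes (median 0.58) and 2 of the 3 stalk genes. For 69 of the 77 the libraries of KO Reserve all lay above those of WT Reserve, and for 2, the paralogues Rps4l and Rpl39l, all lay below, against 14.0% and 30.7% of all genes. Quantile normalization lowered the median to 0.30 and the count that rose to 55, with 1 lower.

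Rps12, a small subunit protein near the decoding side of the ribosome, showed the largest difference. Its libraries read 519, 548 and 468 FPKM in WT Reserve and 865, 1127 and 1495 in KO Reserve, against 331, 400.4 and 343 in WT. The groups did not overlap, and the log2 difference between the reserve groups was 1.15 (SE 0.17, adjusted p = 5.35e-05 by limma). A row named as a pseudogene of Rps12 makes this value less certain. Rps12-ps3 was listed at 0 in all 12 libraries outside the reserve set, at 16.5, 22.2 and 17.3 FPKM in WT Reserve and at 34.3, 50.9 and 63.4 in KO Reserve. How similar the rows are was not measured, and how fragments were shared between them is not given in the sources used here. Over all genes, 26 rows were at 0 in those 12 libraries and above 1 FPKM in all 6 reserve libraries.

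Rps2, which lines the entry of the messenger RNA channel, came next. It held 496, 481 and 479.9 FPKM in WT Reserve and 894, 1008 and 1165 in KO Reserve, with a log2 difference of 1.06 (SE 0.09, limma adjusted p = 2.1e-07). The WT libraries read 426, 479 and 436 FPKM, just below those of WT Reserve, and that difference of 0.12 did not pass (limma adjusted p = 0.251).

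Rps21 rose by 0.93 and Rpl28 by 0.85. Rplp1, a stalk protein that helps to recruit translation factors, read 881, 1003 and 802 FPKM in WT Reserve and 1273, 1661 and 2158 in KO Reserve, a log2 difference of 0.89 (SE 0.15, limma adjusted p = 0.000173). For Rps12, Rps21, Rplp1 and Rpl28 the 3 KO Reserve libraries were widely spread, and replicate 1 was the lowest of the 3 each time.

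The smallest of the differences that passed the test were 0.29 for Rps6, the small subunit protein phosphorylated by S6 kinases, 0.33 for Rpl15, 0.34 for Rpl32 and Rpl19 and 0.35 for Rps7. Rps6 read 699.6, 748 and 648 FPKM in WT Reserve and 808, 869 and 891 in KO Reserve, with limma adjusted p = 0.00595.

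Among the genes that did not pass were Rpl3, Rpl4, Rplp0, Rpl39l and Rps4l. Rpl4, a large subunit protein with a loop in the exit tunnel, read 1384, 1429 and 1372 FPKM in WT Reserve and 1461, 1427 and 1288 in KO Reserve, and the groups overlapped around the same mean. Rplp0, the base of the stalk, read 1016, 966 and 1031 FPKM in WT Reserve and 1118, 1135 and 1134 in KO Reserve. Its groups did not overlap, yet its log2 difference of 0.17 (SE 0.08) had limma adjusted p = 0.103. Rpl3, at the peptidyl transferase centre, differed by 0.15 (SE 0.09), with limma adjusted p = 0.208. Length was taken as the median over the annotated transcripts of a gene, which need not be the length of the transcript present in these cells. By this measure Rpl4, Rpl3 and Rplp0 had 856, 824 and 774 bases, above the median of 632. Rps2, whose difference was 1.06, was longer still by this measure, at 963.5 bases. Over the 74 genes the difference had a Pearson correlation of -0.351 with log2 transcript length and -0.143 with mean level. The part of length in the differences of these genes was not tested.

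**Figure D2:**
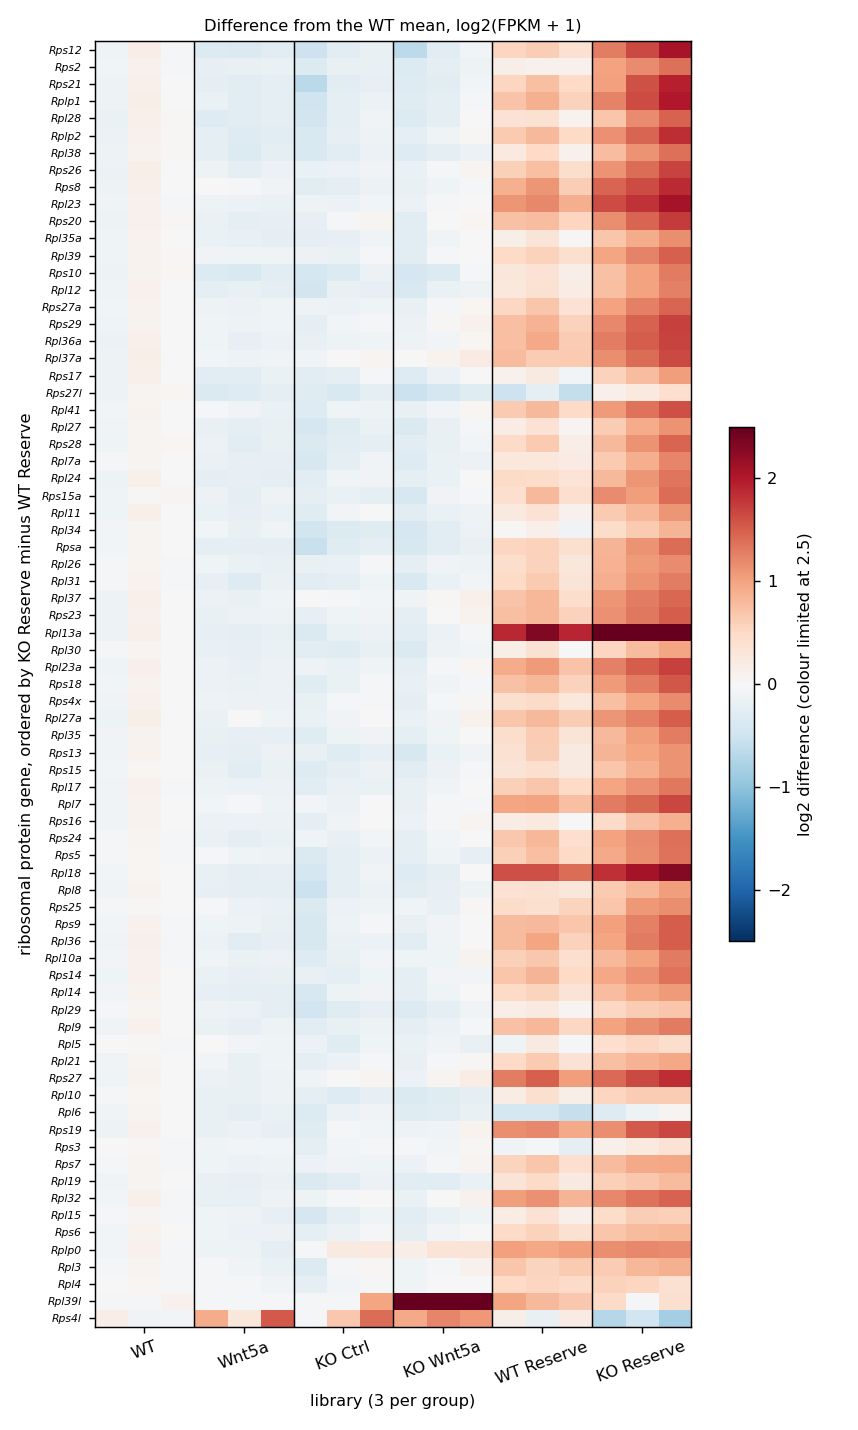
Difference of each library from the WT mean on the log2(FPKM + 1) scale for 75 of the 77 tested genes (rows, from the largest to the smallest difference between KO Reserve and WT Reserve) in 18 libraries (columns, 3 per group). Rps12 is at the top and Rpl39l and Rps4l at the bottom; Rpl13a and Rpl18 are the darkest rows in the reserve libraries among canonical genes.

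The reserve label went with higher ribosomal protein genes in wild-type cells too, but less uniformly. In WT Reserve against WT, 59 of the 77 rose and 2 fell, where 30.8% of all genes rose and 27.9% fell. The median log2 difference was 0.50, with the middle 50% from 0.27 to 0.71, against a median of 0.06 over all genes. The small subunit had 25 of 30 higher, the large subunit 30 of 41 higher and 1 lower, and the stalk 3 of 3 higher.

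Rpl13a stood apart. This large subunit protein, also known for silencing inflammatory messenger RNAs, read 293, 347 and 317 FPKM in WT, 1173, 1595 and 1193 in WT Reserve, then 1861, 1999 and 2108 in KO Reserve. The 3 groups did not overlap, and the log2 difference of WT Reserve from WT was 2.04 (SE 0.11, limma adjusted p = 1.12e-10). Rpl18 followed with 551, 601 and 587 FPKM in WT against 1768, 1767 and 1524 in WT Reserve, a difference of 1.54 (SE 0.11). Rps27 rose by 1.27, Rps19 by 1.10 and Rpl23 by 1.07.

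Rps19, the gene first tied to Diamond-Blackfan anaemia, read 1485, 1740.3 and 1628 FPKM in WT, 3590.4, 3737 and 3103 in WT Reserve, then 3631, 4688 and 5151 in KO Reserve. Both reserve groups lay above WT, and they overlapped each other, KO Reserve replicate 1 being below WT Reserve replicate 2.

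Rpl6 and Rps27l fell. Rpl6, a large subunit protein, went from 873, 967 and 933 FPKM in WT to 679.7, 679.7 and 622 in WT Reserve, a log2 difference of -0.48 (SE 0.09, limma adjusted p = 0.000162). It was then higher in KO Reserve, at 743, 841 and 963. Rps3 and Rpl34 did not pass between WT Reserve and WT, at -0.12 and 0.02.

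Genes with a known role of their own were again highest in KO Reserve. Rpsa, also known as the laminin receptor and mutated in congenital loss of the spleen, read 250.4, 275 and 260.0 FPKM in WT, 378, 389 and 344 for WT Reserve and 469, 574 and 686 for KO Reserve, the 9 libraries of Wnt5a, KO Ctrl and KO Wnt5a lying between 179 and 230.1. It rose by 0.62 (SE 0.11) from WT Reserve to KO Reserve, without overlap, and by 0.50 from WT to WT Reserve. Rps27a, made as a fusion with ubiquitin, held 579, 647 and 601 FPKM in WT, 870.3, 980.3 and 778 for WT Reserve and 1227, 1460.4 and 1676 for KO Reserve, the 9 libraries of Wnt5a, KO Ctrl and KO Wnt5a lying between 532 and 629. It rose by 0.73 (SE 0.10) from WT Reserve to KO Reserve, without overlap, and by 0.52 from WT to WT Reserve. Rpl38, known for its part in the translation of Hox messenger RNAs, stood at 856, 995 and 945 FPKM in WT, 1104, 1314 and 1003 for WT Reserve and 1588, 2030.1 and 2434 for KO Reserve, the 9 libraries of Wnt5a, KO Ctrl and KO Wnt5a lying between 717 and 842. It rose by 0.81 (SE 0.13) from WT Reserve to KO Reserve, without overlap, and its 0.28 from WT to WT Reserve did not pass.

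The partners of the paralogues Rps4l and Rpl39l, and Rpl36a, rose at both steps. Rps4x, the X-linked partner of Rps4l, read 609.8, 694 and 639.7 FPKM in WT, 858, 903 and 777 for WT Reserve and 1093, 1290.2 and 1468 for KO Reserve, the 9 libraries of Wnt5a, KO Ctrl and KO Wnt5a lying between 545 and 657. It rose by 0.59 (SE 0.10) from WT Reserve to KO Reserve, without overlap, and by 0.38 from WT to WT Reserve. Rpl36a, a large subunit protein, held 296, 355 and 329.9 FPKM in WT, 553, 626 and 508 for WT Reserve and 791, 933 and 1059 for KO Reserve, the 9 libraries of Wnt5a, KO Ctrl and KO Wnt5a lying between 282 and 339. It rose by 0.72 (SE 0.10) from WT Reserve to KO Reserve, without overlap, and by 0.78 from WT to WT Reserve. Rpl39, a small protein of the exit tunnel, stood at 228, 261 and 253 FPKM in WT, 348, 367 and 325 for WT Reserve and 493, 585 and 701 for KO Reserve, the 9 libraries of Wnt5a, KO Ctrl and KO Wnt5a lying between 206 and 246. It rose by 0.76 (SE 0.11) from WT Reserve to KO Reserve, without overlap, and by 0.49 from WT to WT Reserve.

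Rpl5 and Rpl11, the protein partners of 5S ribosomal RNA, rose in KO Reserve over WT Reserve but did not pass in WT Reserve over WT. Rpl5, of that particle, read 526, 538 and 507 FPKM in WT, 487, 612 and 506 for WT Reserve and 703, 751 and 713 for KO Reserve, the 9 libraries of Wnt5a, KO Ctrl and KO Wnt5a lying between 426 and 522. It rose by 0.44 (SE 0.08) from WT Reserve to KO Reserve, without overlap, and its 0.02 from WT to WT Reserve did not pass. Rpl11, the other partner, held 276, 327 and 296 FPKM in WT, 355, 382 and 322 for WT Reserve and 474, 529.9 and 646 for KO Reserve, the 9 libraries of Wnt5a, KO Ctrl and KO Wnt5a lying between 241 and 297. It rose by 0.63 (SE 0.11) from WT Reserve to KO Reserve, without overlap, and its 0.23 from WT to WT Reserve did not pass. Rps14, the small subunit gene of the 5q- syndrome, stood at 1302, 1523 and 1408 FPKM in WT, 2289, 2531 and 1997 for WT Reserve and 2750.3, 3098 and 3619 for KO Reserve, the 9 libraries of Wnt5a, KO Ctrl and KO Wnt5a lying between 1185 and 1349.6. It rose by 0.47 (SE 0.10) from WT Reserve to KO Reserve, without overlap, and by 0.68 from WT to WT Reserve.

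Of the genes outside the fit, Rpl22, an RNA-binding large subunit protein needed for T cell development, read 245, 296 and 277 FPKM in WT, 419, 410.4 and 340.1 for WT Reserve and, in the first 2 KO Reserve libraries, 582 and 724. It was not tested. Rpl3l, the muscle paralogue of Rpl3, lay between 0 and 0.934 FPKM in the 18 libraries, and Rpl10l, a testis paralogue of Rpl10, was listed at 0 in 17 of 18.

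In knockout cells the reserve label went with a larger difference. In KO Reserve against KO Ctrl, 74 of the 77 rose and 1, Rps4l, fell, where 24.8% of all genes rose and 40.4% fell. The median log2 difference was 1.31, against -0.19 over all genes, and Rpl13a led with 2.86 (SE 0.11), followed by Rpl18 with 2.33, Rps12 with 1.99, Rpl23 with 1.96 and Rplp1 with 1.91. Rps3 had the smallest difference of the canonical genes that passed, at 0.35, and quantile normalization turned it to -0.32. Of the 77 genes, 57 rose step by step, with every WT Reserve library above every WT library and every KO Reserve library above every WT Reserve library. That is 74.0% of them, against 6.11% of all genes.

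**Figure D3:**
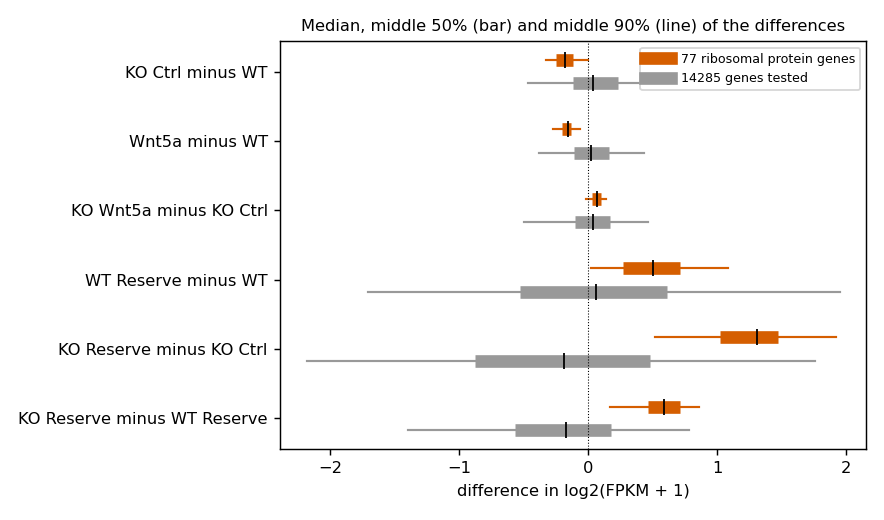
Differences between groups on the log2(FPKM + 1) scale for 6 comparisons, for the 77 ribosomal protein genes (orange) and the 14285 genes tested (grey), with the median as a tick, the middle 50% as a bar and the middle 90% as a line. In KO Reserve minus WT Reserve the median is 0.59 for ribosomal protein genes and -0.17 for all genes, and in the 3 comparisons outside the reserve set the ribosomal protein medians are -0.18, -0.16 and 0.07.

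Outside the reserve set the libraries titled knockout were lower than WT, by an amount that did not pass the adjusted test for any gene. In KO Ctrl against WT, 0 of the 77 genes passed in limma, where 2.65% of all genes did in either direction. At an unadjusted p below 0.05 there were 25, of which 24 were lower, and 17.6% of all genes had such a p. The median log2 difference was -0.18, against 0.04 over all genes. For 42 of the 77 every KO Ctrl library lay below every WT library, which held for 11.4% of all genes. The smallest p belonged to Rpl34, Rpl29 and Rpl10. Rpl34 read 662, 731 and 690.1 FPKM in WT and 507, 548 and 563 in KO Ctrl, with a log2 difference of -0.36 (SE 0.10, adjusted p = 0.0526 by limma). Weighting the libraries gave 12 genes that passed, and a fit to only the 12 libraries outside the reserve set gave 9, all of them lower. KO Ctrl replicate 1, the shallowest library of the group, had the lowest sum of the 12.

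The Wnt5a label in wild type showed the same small shift. Of the 77 genes 0 passed in limma, where 0.0490% of all genes did, and 10 had an unadjusted p below 0.05, 9 of them lower, against 7.88% of all genes. The median was -0.16, against 0.02 over all genes, and 59 of the 77 had every Wnt5a library below every WT library, against 9.71% of all genes. This comparison and the one before share the WT libraries, so their likeness is not a separate result. With weighted libraries 20 genes passed, 19 lower and 1 higher. The 3 smallest p-values were those of Rps27l, Rps4l and Rps10, of which only Rps10 is canonical. Rps10 read 350.5, 412 and 396 FPKM in WT and 305, 297 and 319 in Wnt5a. Its log2 difference was -0.33 (SE 0.13, limma adjusted p = 0.546).

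In knockout cells no canonical gene passed for the Wnt5a label. Their sums overlapped between KO Wnt5a and KO Ctrl, and the median log2 difference of the 77 genes was 0.07, against 0.04 over all genes. The single gene that passed was the paralogue Rpl39l, where 0.315% of all genes rose, and Rpl39l entered the test only through the KO Wnt5a libraries.

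The difference between the libraries titled knockout and wild type was not the same inside and outside the reserve set. The same term was lower for 10 of the 10 LT-HSC markers tested (median -1.82), and their part in the result was not tested. The test of the difference, (KO Reserve minus WT Reserve) minus (KO Ctrl minus WT), passed with a higher value for 71 of the 77 genes and a lower one for Rps4l, where 8.03% and 22.9% of all genes did. The median was 0.76, against -0.22 over all genes. Rps12 had 1.48 (SE 0.24), Rps21 1.31, Rps2 1.30 (SE 0.13), Rplp1 1.18 and Rpl28 1.11. Among the smallest that passed were 0.38 for Rpl32, 0.43 for Rps6 and 0.46 for Rps7. Rpl3, Rpl4, Rplp0, Rps27 and Rpl39l did not pass. Rplp0 had 0.03 (SE 0.11, limma adjusted p = 0.864), and it was the canonical gene with the highest KO Ctrl minus WT value, 0.14.

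**Figure D4:**
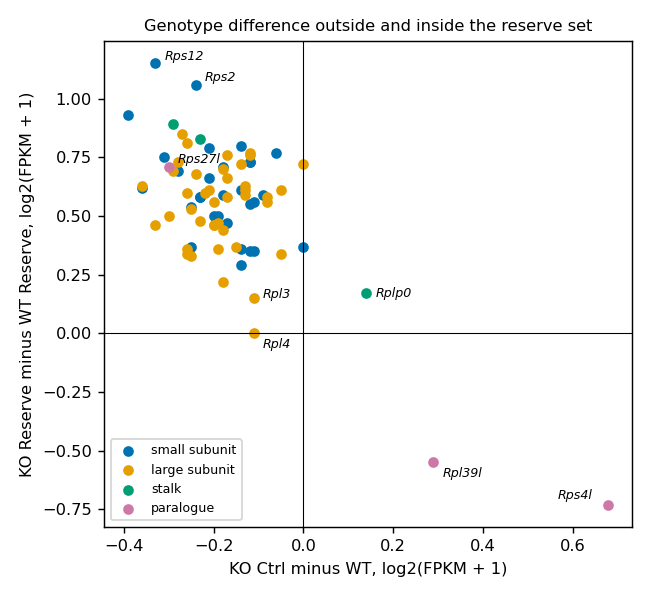
Each point is 1 of the 77 tested genes, with the difference KO Ctrl minus WT on the horizontal axis and KO Reserve minus WT Reserve on the vertical axis, both on the log2(FPKM + 1) scale, coloured by subunit. Most canonical genes sit at the upper left, and Rplp0, Rpl39l and Rps4l sit to the right of 0.

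The paralogues of single ribosomal proteins each had a pattern of their own. Rpl39l, the paralogue of Rpl39 known for its use in the testis, was listed at 0, 0 and 0.124 FPKM in WT, at 0 in all 3 Wnt5a libraries and at 0, 0 and 1.06 in KO Ctrl. In KO Wnt5a it read 8.53, 10.02 and 12.5 FPKM, above every other library of the study, and in WT Reserve 1.07, 0.815 and 0.648 and in KO Reserve 0.44, 0 and 0.375. Outside KO Wnt5a only KO Ctrl replicate 3 and WT Reserve replicate 1 reached 1 FPKM, so the gene passed the filter on low values through the very group in which it was high, and its differences are given as a description. On the log2(FPKM + 1) scale KO Wnt5a was higher than KO Ctrl by 3.14 (SE 0.24), and the difference that went with the Wnt5a label was larger in the knockout by 3.20 (SE 0.34). Of the 77 genes it was the 1 called in the latter comparison, where 0.0210% of all genes were called higher, and with a pseudocount of 0.1 it was not called. At these depths 3 fragments on a transcript of 1 kb are 0.0723 to 0.1446 FPKM.

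Rpl39 itself did not follow. It read 222, 221 and 237 FPKM in KO Ctrl and 206, 239 and 246 in KO Wnt5a, about its level in WT. Since both genes could share fragments, their coding sequences from GENCODE M21 are shown whole, each 156 bases with the stop codon, with the 23 bases at which they differ in capitals, an identity of 85.3%.

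Rpl39: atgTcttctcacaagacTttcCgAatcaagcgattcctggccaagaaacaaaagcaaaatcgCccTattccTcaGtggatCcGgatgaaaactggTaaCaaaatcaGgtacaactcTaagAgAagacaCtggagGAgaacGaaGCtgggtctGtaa

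Rpl39l: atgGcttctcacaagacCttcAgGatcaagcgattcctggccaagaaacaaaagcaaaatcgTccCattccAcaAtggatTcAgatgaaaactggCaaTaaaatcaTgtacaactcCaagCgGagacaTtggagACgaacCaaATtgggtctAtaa

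The differences are spread along the sequence. Rpl39l lies on chromosome 16 (10170226 to 10174911, plus strand) and Rpl39 on the X chromosome (37082520 to 37085402, minus strand), both in GRCm38. Neither annotated start holds a C followed by 4 pyrimidines. The windows are shown with the first transcribed base in capitals, beside that of Rps27l.

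Rpl39 (chrX:37085203-37085232, minus strand): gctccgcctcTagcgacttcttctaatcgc

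Rpl39l (chr16:10170218-10170247, plus strand): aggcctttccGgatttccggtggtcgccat

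Rps27l (chr9:66946076-66946105, plus strand): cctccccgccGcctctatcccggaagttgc

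Rps27l, the paralogue of Rps27, was expressed at the level of the highest canonical genes. It read 1605, 1831 and 1804 FPKM in WT, 1365, 1398 and 1467 in Wnt5a, 1416, 1343 and 1486 in KO Ctrl and 1203, 1305 and 1412 in KO Wnt5a. It fell to 1214, 1478 and 1154 in WT Reserve, by 0.45 on the log2 scale (SE 0.10, limma adjusted p = 0.000699), where Rps27 rose by 1.27. In KO Reserve it rose again, to 1908, 2058 and 2320.2 FPKM, by 0.71 (SE 0.10) over WT Reserve.

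Rps4l, a paralogue of Rps4x, was low and variable, at 12.5, 10.3 and 10.5 FPKM in WT, 22.1, 13.8 and 33.7 in Wnt5a, 10.7, 18.3 and 30.6 in KO Ctrl and 22.2, 26.9 and 24.5 in KO Wnt5a. It read 12.3, 9.59 and 12.8 in WT Reserve, then 6.35, 7.63 and 5.70 in KO Reserve. KO Reserve lay below KO Ctrl by 1.36 on the log2 scale (SE 0.30, limma adjusted p = 0.000945), the only ribosomal protein gene to fall in that comparison. Its difference between the reserve groups, -0.73, had limma adjusted p = 0.0654. Rps4x itself rose by 0.59 there.

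**Figure D5:**
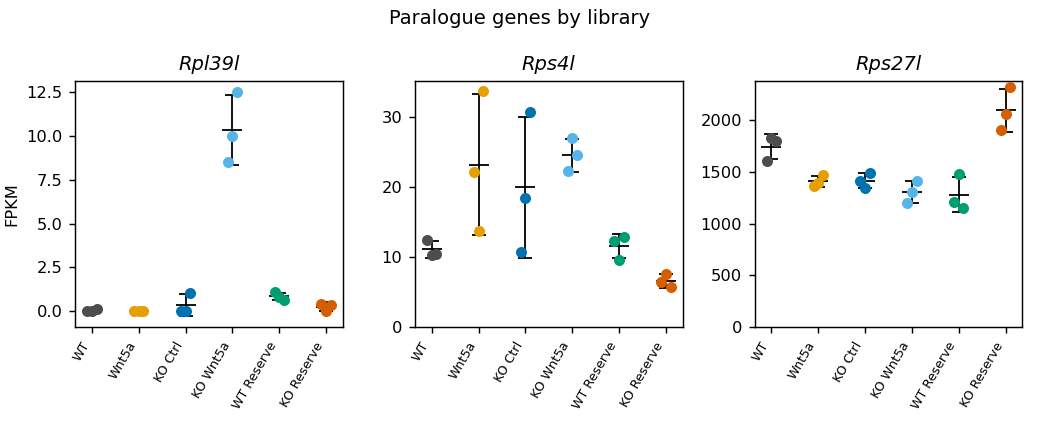
FPKM of the paralogues Rpl39l, Rps4l and Rps27l in every library, with 1 point per library and bars for the mean and SD of 3. Rpl39l is at 8.53 to 12.5 FPKM in KO Wnt5a and at most 1.07 elsewhere, Rps4l is lowest in KO Reserve, and Rps27l is highest there.

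Rows whose deposited name marks a ribosomal protein pseudogene with -ps stayed a small part of the signal. Pseudogenes under other names were not counted. The 266 rows summed to 75.1 ± 5.7 FPKM in WT, 126 ± 5.24 in WT Reserve, then 213 ± 36.1 in KO Reserve (SD, n = 3), which is 0.156% to 0.225% of the canonical sum in any library. Of these, 25 passed the filter, and in limma 5 rose and 0 fell from WT Reserve to KO Reserve, where 12.0% and 29.3% of all genes did.

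The 19 ribosomal protein genes mutated in Diamond-Blackfan anaemia, a list drawn up after the data were seen, all rose in KO Reserve over WT Reserve (median 0.61), and 13 of 19 rose in WT Reserve over WT (median 0.46). All genes had 12.0% and 30.8% higher in these comparisons, and the 77 ribosomal protein genes, of which these are a subset, had 71 and 59. Rpl35a rose by 0.76, Rps29 by 0.73 and Rpl26 by 0.61 between the reserve groups. Rps14, whose loss goes with the 5q- syndrome, rose by 0.47. Rps19 rose by 0.36 (SE 0.11, limma adjusted p = 0.0189), and this call was lost with quantile normalization (0.07) and without KO Reserve replicate 2 (0.32), KO Reserve replicate 3 (0.25) or WT Reserve replicate 3 (0.28).

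The factors that assemble ribosomes were split between higher and lower. Of 58 ribosome biogenesis factors, 10 rose and 12 fell in KO Reserve over WT Reserve, with a median of 0.04, near the 12.0% and below the 29.3% of all genes. Npm1, a nucleolar chaperone, rose by 0.55 (SE 0.07), from 1215 ± 82.1 to 1782 ± 87.1 FPKM, and Nhp2, a protein of H/ACA particles, rose by 0.51. Pes1, of the complex that matures the large subunit RNAs, fell by 1.40 in KO Reserve against KO Ctrl, and Mdn1, a remodelling ATPase of pre-60S particles, rose by 1.72. Of 15 genes of RNA polymerase I transcription, which makes the precursor of ribosomal RNA, 2 rose and 4 fell between the reserve groups, shares near the 12.0% and 29.3% of all genes.

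Other genes known for TOP messenger RNAs and translation elongation were mostly higher, with 16 of 23 that rose and 2 that fell (median 0.28), against 12.0% and 29.3% of all genes (median -0.17). Rack1, a scaffold on the small subunit, rose by 0.75 (SE 0.10), from 1943 ± 85.7 to 3294 ± 614 FPKM, and Eif4b rose by 0.67, while Vim, a TOP gene of the cytoskeleton, fell by 0.89. Among 27 initiation factors 3 rose and 6 fell, shares near the 12.0% and 29.3% of all genes. Eif4a1, the helicase of the cap-binding complex, fell by 0.90, from 314 ± 68.5 to 166 ± 19.7 FPKM, and stood at 611 ± 12.3 in WT.

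Of 20 genes of mTORC1 and TOP control, 2 rose and 7 fell (median -0.14), near the 12.0%, 29.3% and median of -0.17 of all genes. Eif4ebp1, the translation repressor that mTORC1 inactivates, rose by 0.52, and Rragb, a GTPase that brings mTORC1 to the lysosome, fell by 1.42. Of 9 genes of the Myc network, which drives ribosome production in many cells, 0 rose and 3 fell, the latter a share near the 29.3% of all genes. Mycn went from 82.8 ± 3.67 FPKM in WT to 19.3 ± 4.49 for WT Reserve and 6.18 ± 1.07 for KO Reserve. Myc was lowest in WT, at 56.5 ± 4.72 FPKM, among these 3 groups. It went from 119 ± 11.9 in WT Reserve to 82.1 ± 21.9 in KO Reserve (log2 difference -0.57, limma adjusted p = 0.0177).

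Host genes of snoRNAs, most of them non-coding and many with a TOP tract, were mostly higher, Rack1 being in this list too. Of 13 tested, 10 rose and 0 fell in KO Reserve over WT Reserve (median 0.64), and 11 rose and 0 fell in WT Reserve over WT (median 1.02). Of all genes, 12.0% rose and 29.3% fell in the former, and 30.8% and 27.9% in the latter. Gas5 went from 452 ± 25.7 FPKM in WT to 1755 ± 135 in WT Reserve, then 2210.2 ± 243 in KO Reserve. Snhg3 rose by 0.88 (SE 0.10) between the reserve groups. Of 14 nonsense-mediated decay genes, a pathway that degrades several of these hosts, 4 rose and 1 fell between the reserve groups, where 12.0% and 29.3% of all genes did.

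The proteins of the mitochondrial ribosome, which are encoded by separate nuclear genes, rose in part. Of 76, 39 rose and 8 fell in KO Reserve over WT Reserve (median 0.27), against 12.0% and 29.3% of all genes (median -0.17), led by Mrpl52, which went from 416 ± 14.9 to 877 ± 106 FPKM (log2 difference 1.07, SE 0.09).

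Over the 18 libraries, the genes whose log2 profile was most like the mean of the ribosomal protein genes were Ndufa1 (Pearson r = 0.995), Ndufa7 (0.994), Ndufb7, Uqcrh and Mrps28 (0.993 each). Ndufa1 read 594 ± 47 FPKM in WT, 954 ± 87 in WT Reserve, then 1666 ± 266 in KO Reserve. The libraries fall into the reserve set and the rest, so these values mostly describe that split. By the median over annotated transcripts, ribosomal protein genes had a median length of 632 bases against 1144 over all genes tested. Ndufa1 had 419, Ndufa7 428, Uqcrh 547, Mrps28 783 and Ndufb7 2529. These need not be the lengths of the transcripts present in these cells, and the part of length in these profiles was not tested.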

How the data were processed

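RNA-seq of 18 libraries, 6 groups of 3, was analysed. Per the labels, cDNA came from a SMARTer kit for ultra low input and libraries from Nextera chemistry, which keeps no strand. TopHat2 2.0.10, Cufflinks, CASAVA 1.8.2 and mm10 are named in the submitters' processing notes. The authors deposited 1 table of FPKM, a unit the header does not name and that was checked on the values. Multi-mapping treatment is not given in the sources used here. GENCODE M21 (GRCm38) gave symbols, lengths and positions and matched 44022 identifiers (327 kept the deposited name). The length of a gene was the median over its annotated transcripts. 16 genes with missing values (33 cells) were left out.

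log2(FPKM + 1) of genes reaching 1 FPKM in 3 or more libraries was fitted with 1 mean per group over all 18 libraries in limma 3.58.1 (R 4.3.3), with trend and robust moderation, and Benjamini-Hochberg adjustment over all genes at 0.05. The fit was tested on simulated data. Fold changes on this scale understate those of low genes. Lists are given as counts and medians, with no test of their own. Replicate numbers were not used as a block, since no label ties equal numbers to a mouse or day. Members and lists were chosen with earlier results of these data known. Besides a fixed set by role, genes were named by a rule: per comparison up to 5 with the largest and 5 with the smallest differences that passed and those against the main direction, the 3 smallest p where fewer than 3 passed, the 5 highest and lowest in WT, and up to 3 per list. The sequences shown and the count of rows at 0 were chosen after values were seen. Counts were not used here, so depth was inferred from the smallest steps, and floors cover counting error only. Python 3.11.15, numpy 2.4.6, pandas 2.3.3 and matplotlib 3.10.9 made summaries and plots. Results on a few genes are not reported here.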

Additional observations from a re-analysis of the deposited data

Results flagged for a closer look

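The difference between groups in the same contrast was tested for the knockout inside and outside the reserve set and for the Wnt5a label in both genotypes. The first passed for 72 of the 77 genes. The named values were 1.48 for Rps12, 1.31 for Rps21, 1.30 for Rps2, 1.18 for Rplp1, 1.11 for Rpl28, 0.38 for Rpl32, 0.43 for Rps6, 0.46 for Rps7 and -1.41 for Rps4l, on the log2(FPKM + 1) scale. The sums of erythroid, neutrophil and LT-HSC markers also differed between the reserve groups, and their part was not tested. The second was called for 1 gene, Rpl39l, with 3.20. Rpl39l reached the filter on low values only through KO Wnt5a, so this is no support for a difference beyond its values. The value rests on the 3 KO Wnt5a libraries at 8.53 to 12.5 FPKM, and KO Ctrl replicate 3, at 1.06, was the highest of the WT, Wnt5a and KO Ctrl libraries.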

How the results depend on the processing

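The counts and medians were recomputed with another scaling, pseudocount, filter, moderation or set of libraries, and without each library in turn. After the data were seen, 2 settings were added: the 12 libraries outside the reserve set alone, and scaling to the protein-coding genes that encode no ribosomal protein. Quantile normalization lowered the median difference to 0.30 for KO Reserve against WT Reserve, 0.32 for WT Reserve against WT, 0.71 for KO Reserve against KO Ctrl and 0.41 for the knockout's difference between the sets. Median-ratio scaling gave 0.84, 1.63 and 1.10 for KO Reserve against WT Reserve, KO Reserve against KO Ctrl and the knockout's difference between the sets, and removing a trend along transcript length gave 0.71 for KO Reserve against WT Reserve and 0.91 for the knockout's difference between the sets. Quantile normalization also moved the all-gene median of KO Reserve against WT Reserve from -0.17 to 0.03, so the genes called over the table went from 1708 higher and 4191 lower to 3154 and 2764, and with median-ratio scaling to 3166 and 2800. With quantile normalization Rps6 turned to -0.01 in KO Reserve against WT Reserve, Rpl5 to -0.17 in WT Reserve against WT, Rps3 to -0.32, Rpl4 to -0.07 and Rps27l to -0.15 in KO Reserve against KO Ctrl, and Rplp0 to -0.34 in the knockout's difference between the sets. Of these differences, those of Rpl5 and Rplp0 had not passed before quantile normalization. Others that had not passed also turned. Rpl6 went from 0.06 to -0.57 in KO Reserve against KO Ctrl and Rpl34 from 0.02 to -0.20 in WT Reserve against WT. Rpl4 went from 0.10 to -0.32 in the knockout's difference between the sets. The cause was not tested. Scaling to the coding genes that encode no ribosomal protein left 71 genes and a median of 0.59 for KO Reserve against WT Reserve. It moved the median of KO Ctrl against WT to -0.10, while the all-gene median of KO Ctrl against WT moved from 0.04 to 0.11. For KO Ctrl against WT, where 0 passed, 2 passed with quantile normalization, 4 with median-ratio scaling, 1 with a pseudocount of 0.1, 2 with a mean of at least 5 FPKM, 12 with library weights, 1 with only the libraries of the comparison, 3 without the length trend and 9 with the 12 libraries, all lower. For Wnt5a against WT, 20 passed with library weights. For KO Wnt5a against KO Ctrl, and for the Wnt5a label between genotypes, 0 passed with a mean of at least 5 FPKM, which removes Rpl39l, and for the latter 0 passed with a pseudocount of 0.1.

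Without single libraries, the count for KO Ctrl against WT ran from 0 to 6, with 6 without WT Reserve replicate 2, 2 without KO Reserve replicate 1 and 1 without KO Wnt5a replicate 1 or 3, WT Reserve replicate 3 or KO Reserve replicate 3. It ran from 69 to 73 for KO Reserve against WT Reserve (median 0.49 to 0.68), from 57 to 65 for WT Reserve against WT and from 68 to 73 for the knockout's difference between the sets. Replicate numbers did not pair the libraries, with correlations of deviations from -0.0775 to 0.0789, and the replicate block gave 1 gene for KO Ctrl against WT and 63 for WT Reserve against WT. Without counts, precision at low levels is limited by the inferred depth.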
